A study of Mus musculus with 8 samples.

Results

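The growth hormone and insulin-like growth factor (IGF) system of the mouse ovary was examined through 10 genes, chosen by symbol from the 45583 symbols of the deposited count table. They are the ligands *Igf1* and *Igf2*, the receptors *Ghr*, *Igf1r*, *Igf2r* and *Insr*, and the IGF-binding protein genes *Igfbp2*, *Igfbp3*, *Igfbp4* and *Igfbp5*. All 10 passed the filter on low counts and were among the 16601 genes tested. Whole ovaries came from 4 WT and 4 GOAT KO mice of the C57/Bl6 strain, aged 3 weeks, with 1 library per mouse, and libraries are named here by group and animal number. Both groups were female littermates from heterozygous crosses with no treatment given in the labels, and the KO group carries a germline deletion of ghrelin-O-acyltransferase (GOAT, the product of *Mboat4*), the enzyme that puts the acyl group on ghrelin. The question was which transcripts of the juvenile ovary differ when acyl ghrelin is absent.

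Growth hormone from the pituitary binds the growth hormone receptor and, through JAK2 and STAT5, switches on *Igf1* in liver and other tissues. IGF1 and IGF2 then act on the IGF1 receptor and the insulin receptor, while the IGF2 receptor takes up IGF2 for breakdown and the binding proteins hold the ligands outside the cell. In the mouse ovary, IGF1 made by granulosa cells is known to support the response of growing follicles to follicle-stimulating hormone.

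The counts on genes summed to between 16147216 and 19481798 per library, and counts of the 10 genes lay between 150 and 14529 per library. *Mboat4*, under the filter on low counts, had 1, 1, 1 and 3 counts in the 4 WT libraries and 5 to 8 counts in the 4 GOAT KO libraries. This is opposite to a loss of the transcript in libraries labelled GOAT KO. A gene total does not show which exons the reads came from, and so few reads cannot settle the labels. The groups are therefore given as libraries labelled WT or labelled GOAT KO. Markers of granulosa cells (8 of 8 genes passed the filter), oocytes (10 of 10), theca and steroidogenic cells (6 of 7) and stroma (7 of 7) were present in every library, as the label ovary requires. WT 1120 lay outside the range of the other 6 libraries, leaving GOAT KO 1139 aside, below it for 22% and above it for 23.7% of all genes tested. GOAT KO 1139 did so for 18.4% and 19.6% of genes, and its 6 fat cell markers summed to 365 CPM (read counts scaled to normalized library size), against 8.98 to 23.6 CPM in the other 7 libraries. The same shares were not worked out for the other libraries, so no baseline stands beside them. In multidimensional scaling (distances between libraries over the genes that differ most), GOAT KO 1139 lay at 1.21 on axis 1. On axis 2, WT 1118 lay at 0.76 and WT 1120 at -0.43. Comparisons are given over all 8 libraries, and most also over the 6 without WT 1120 and GOAT KO 1139. In whole ovaries, fewer cells of a type and less RNA per cell cannot be told apart.

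Per length of exon, *Igfbp5*, *Igfbp4* and *Igf1* were the most abundant members and *Igf2* the least. *Igfbp5*, whose product binds both IGFs and matrix, had 109 ± 12.9 CPM per kb (SD, n = 8) and lay above every other member in all 8 libraries. *Igfbp4*, a binding protein that is cut by the protease PAPP-A, followed with 38.8 ± 8.03 CPM per kb (SD, n = 8), and *Igf1* with 26.5 ± 4.56 CPM per kb (SD, n = 8). Of the 9 neighbouring pairs in this order, only the ranges of *Igfbp5* and *Igfbp4* and those of *Igf2r* and *Insr* were separate. *Igf1* lay above *Igfbp2* in 5 of 8 libraries, *Igfbp2* above *Ghr* in 5 and *Ghr* above *Igf2r* in 4. *Insr* had 13.04 ± 1.30 CPM per kb (SD, n = 8) and *Igf1r* 9.05 ± 1.30 CPM per kb (SD, n = 8), and *Insr* was the higher in 8 of 8 libraries. *Igf2* had 2.55 ± 0.503 CPM per kb (SD, n = 8), so that *Igf1* made up 88.2% to 94.1% of the ligand transcripts per kb in each library. Within the binding proteins, *Igfbp5* made up 57.1% to 67.0%. The length used was that of all annotated exons of a gene, not of the transcripts present. The order of the genes and these shares depend on it in the same way in every library.

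**Figure D1:**
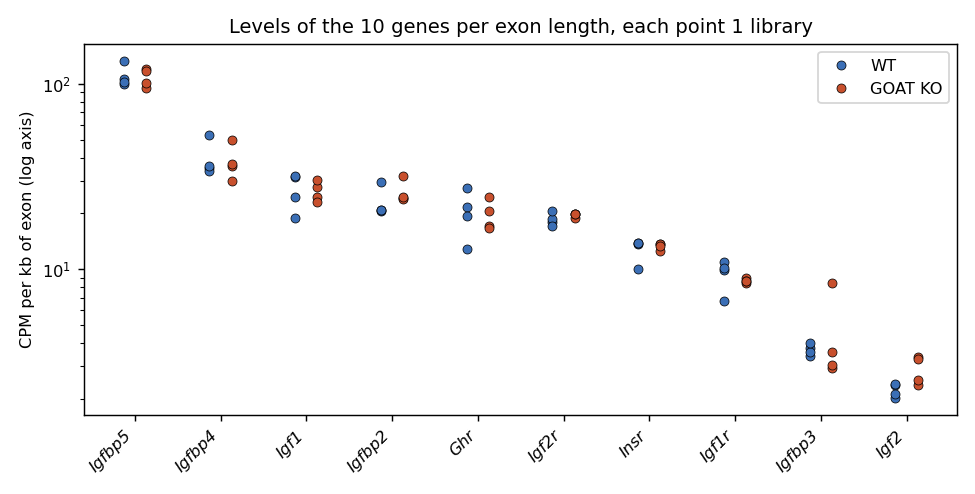
Level of each member in CPM per kb of exon (log axis), with 1 point per library and the 2 groups in 2 colours. *Igfbp5* stands above every other gene, near 109 CPM per kb, and *Igf2* is lowest near 2.55, with the points of both groups mixed for most genes.

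Over all 8 libraries, *Igf2* was the 1 member of 10 with an unadjusted p under 0.05 in edgeR's quasi-likelihood test, against 4.62% of all genes tested. After Benjamini-Hochberg adjustment none of the 10 passed 0.05 in edgeR (background 0.0241%), DESeq2 or limma-voom, and *Igf2* alone passed 0.05 unadjusted in each of these tools. *Igf2* still passed when its log2 fold change also had to exceed 0.3 in size (background 2.85%), and over 0.5 no member did (background 1.67%). The median log2 fold change of the 10 members was 0.018, with 5 higher and 5 lower in libraries labelled GOAT KO, and that of all genes tested was -0.00035. In no member were the 2 groups of 4 libraries free of overlap (background 2.92%). Over the 6 libraries, 3 of 10 members had an unadjusted p under 0.05 (background 9.46%), namely *Igf2*, *Igf1r* and *Igfbp2*, and these were the 3 whose groups did not overlap (background 15.8%). Of these, *Igf2* alone also passed the fold change of 0.3 (background 4.77%), and none passed 0.5 (background 2.39%) or an adjusted p of 0.05 in edgeR (background 0.12%).

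**Figure D2:**
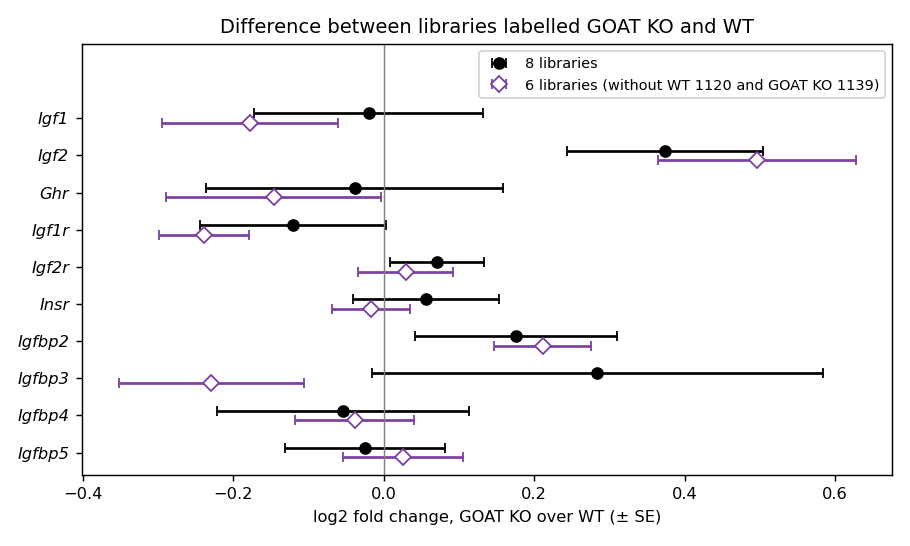
Log2 fold change of each member, libraries labelled GOAT KO over those labelled WT, with bars of 1 SE, from 8 libraries (filled) and from the 6 without WT 1120 and GOAT KO 1139 (open). *Igf2* lies to the right of 0 in both (0.37 and 0.50), and *Igfbp3* changes side (0.28 and -0.23).

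*Igf2* (chromosome 7 from 142650766 to 142666816, − strand, GRCm38) encodes a fetal growth factor and is imprinted, with the paternal copy expressed in most tissues. Its level was 13.6, 11.5, 13.7 and 12.1 CPM in WT 1118, 1119, 1120 and 1121. It was 13.5, 19.3, 18.7 and 14.4 CPM in GOAT KO 1139, 1140, 1141 and 1146. GOAT KO 1140 and 1141 were high, GOAT KO 1146 lay just above every WT library, and GOAT KO 1139 lay inside the WT range. The log2 fold change of *Igf2* was 0.37 (SE 0.13, unadjusted p = 0.0157, adjusted p = 0.983, edgeR quasi-likelihood), or 1.30-fold, and 0.50 (SE 0.13, unadjusted p = 0.00319, adjusted p = 0.347) over the 6 libraries. Without GOAT KO 1140 the log2 fold change of *Igf2* was 0.29 (unadjusted p = 0.0541), and without GOAT KO 1141 it was 0.30 (unadjusted p = 0.0568). Each library held only 207 to 366 *Igf2* reads. Reads in the overlapping antisense gene *Igf2os* numbered 2 to 4 per library.

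*Igf1* (chromosome 10 from 87858265 to 87937042, + strand) encodes the main ligand of the IGF1 receptor. Its level was 313, 315, 187 and 242 CPM in WT 1118, 1119, 1120 and 1121, and 273, 298, 243 and 228 CPM in GOAT KO 1139, 1140, 1141 and 1146. WT 1120 was lowest of all, WT 1118 and 1119 were highest, and the 4 GOAT KO libraries and WT 1121 lay between them. For *Igf1* the log2 fold change was -0.020 (SE 0.15, 95% interval -0.36 to 0.32), and -0.18 (SE 0.12, interval -0.44 to 0.081) over the 6 libraries. Neither interval excluded 0. The interval over 8 libraries left room for a change in either direction, and that over the 6 for a rise of at most 0.081.

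*Igf1* transcripts differ at both ends, and reads across splice junctions tell the forms apart. The Ea end form joins the exon that holds the end of the mature peptide straight to the last exon, while the Eb form includes a 52-base exon (chromosome 10 from 87915298 to 87915349) that changes the E peptide, a tail removed from the mature hormone. Alternative leader exons, of class 1 and class 2, start the signal peptide. The sequences around these joins, from the GENCODE M21 transcripts of GRCm38, are shown since they are what the junction reads match. They run 5′ to 3′ and lie within the coding sequence, and capitals mark the start of the last exon in Ea, the 52-base exon in Eb and the end of the leader exon in classes 1 and 2.
Ea: cccaagactcagaagGAAGTACATTTGAAG
Eb: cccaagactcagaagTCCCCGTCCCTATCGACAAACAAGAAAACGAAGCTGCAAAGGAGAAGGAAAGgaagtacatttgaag
class 1: TGTGACTTCTTGAAGataaagatacacatc
class 2: ATGACCGCACCTGCAataaagatacacatc

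Of the reads across the junction into the last *Igf1* exon, 116 to 223 per library, the Eb form took 28.3%, 35.0%, 37.3% and 27.2% in WT 1118, 1119, 1120 and 1121. It took 36.6%, 34.3%, 36.8% and 31.9% in GOAT KO 1139, 1140, 1141 and 1146. The groups overlapped, and the difference of 2.95 percentage points was within the spread between libraries (31.9% ± 4.98 against 34.9% ± 2.30, SD, n = 4 each; two-sided exact permutation test, p = 0.343, adjusted p = 0.686 over the 2 shares tested). The difference was 1.36 points without WT 1121, 1.74 without WT 1118 and 4.75 without WT 1120. The Ea form was thus the more frequent in every library. Class 2 leaders made up 8.11% to 10.2% of leader junction reads in libraries labelled WT, and 13.8%, 10.5%, 7.58% and 0% in GOAT KO 1139, 1140, 1141 and 1146 (exact permutation test, p = 0.8, adjusted p = 0.8). The 0% is 0 of 62 reads, which allows a share of up to 5.78% (exact 95% binomial interval, counting error alone). The aligner listed some junctions in only part of the libraries. The junction into the 52-base exon had 0 reads in WT 1118 and 29 to 70 in the other 7, although the junction out of it had 60 reads in WT 1118. A 0 may therefore stand for a junction that was not listed.

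**Figure D3:**
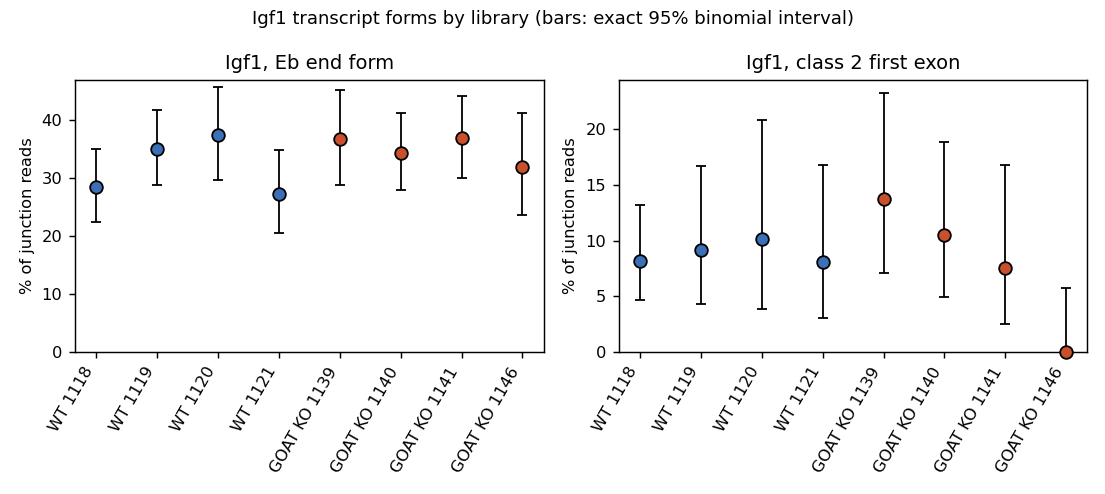
Share of *Igf1* junction reads, in percent, that belong to the Eb end form (left) and to the class 2 leader (right), 1 point per library coloured by group, with exact 95% binomial intervals. Eb shares lie between 27.2% and 37.3% with wide, overlapping intervals, and GOAT KO 1146 shows no class 2 read.

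*Ghr* (chromosome 15 from 3317760 to 3583492, − strand), the growth hormone receptor, varied more between libraries than between groups. It had 247, 196, 116 and 175 CPM in WT 1118, 1119, 1120 and 1121, and 155, 222, 150.4 and 187 CPM in GOAT KO 1139, 1140, 1141 and 1146. Both the highest and the lowest library were labelled WT, 2.13-fold apart. For *Ghr* the log2 fold change was -0.038 (SE 0.20, 95% interval -0.47 to 0.40), and -0.15 (SE 0.14, interval -0.46 to 0.17) over the 6 libraries. No library listed a read across either of the junctions that separate the membrane-bound receptor from the soluble growth hormone binding protein, which mice make by alternative splicing, so these forms were not measured.

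*Igf1r* (chromosome 7 from 67952827 to 68233668, + strand), the receptor that carries most growth signals of both IGFs, had 184, 166, 112 and 170.3 CPM in WT 1118, 1119, 1120 and 1121. It had 141, 151, 145 and 146 CPM in GOAT KO 1139, 1140, 1141 and 1146. The 4 GOAT KO libraries lay close together, below 3 of the WT libraries and above WT 1120. The log2 fold change of *Igf1r* was -0.12 (SE 0.12, unadjusted p = 0.352, adjusted p = 0.983, edgeR quasi-likelihood), and -0.24 (SE 0.060, unadjusted p = 0.00219, adjusted p = 0.323) over the 6 libraries. Leaving out WT 1120 alone gave -0.26, so the unadjusted call of *Igf1r* rests on that library being left aside.

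*Igf2r* (chromosome 17 from 12682406 to 12769664, − strand) encodes the receptor that clears IGF2 and is expressed mainly from the maternal copy. It was the steadiest member over the 8 libraries, though not over the 6, where *Insr* varied less. *Igf2r* ranged from 160.0 to 193 CPM over the 8 libraries, and its log2 fold change was 0.071 (SE 0.063, 95% interval -0.068 to 0.21). The antisense RNA *Airn* overlaps *Igf2r* and had 60 to 91 counts per library, and the sources used here do not say whether counting used strand. *Insr* (chromosome 8 from 3122061 to 3279617, − strand), the insulin receptor, had 184 to 189 CPM in each of the 6 libraries. WT 1120, at 137 CPM, and GOAT KO 1139, at 171 CPM, were both lower. The log2 fold change of *Insr* was 0.056 (SE 0.097) over 8 libraries and -0.016 (SE 0.052, 95% interval -0.13 to 0.098) over 6. The 36-base exon that separates the A and B forms of the insulin receptor (chromosome 8 from 3181702 to 3181737) is given in capitals, since its presence is what the junction reads test.
Insr exon: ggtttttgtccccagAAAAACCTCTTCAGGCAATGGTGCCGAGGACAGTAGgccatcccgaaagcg
Reads that skipped this exon numbered 0 to 11 per library, and those that joined it numbered 0 to 3 on its 5′ side and 0 to 2 on its 3′ side, too few to compare the groups.

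*Igfbp2* (chromosome 1 from 72824503 to 72852474, + strand), a binding protein with a preference for IGF2, had 38.2, 38.7, 54.7 and 38.4 CPM in WT 1118, 1119, 1120 and 1121. It had 58.6, 44.5, 43.9 and 45.04 CPM in GOAT KO 1139, 1140, 1141 and 1146. WT 1120 and GOAT KO 1139 were high in their groups, and among the others every GOAT KO library lay above every WT library with little spread. The log2 fold change of *Igfbp2* was 0.18 (SE 0.13, unadjusted p = 0.219, adjusted p = 0.983, edgeR quasi-likelihood), and 0.21 (SE 0.065, unadjusted p = 0.00776, adjusted p = 0.422) over the 6 libraries. In the same 6 libraries the summed theca and steroidogenic cell markers did not overlap, at 1998 to 2514 CPM in libraries labelled WT and 2536 to 2890 CPM in those labelled GOAT KO. This rested on *Hsd3b1*, the 1 marker of 7 whose groups did not overlap, and without it the sums were 329 to 449 CPM and 405 to 704 CPM. Granulosa cell markers summed to 5108 to 6026 CPM and 5982 to 6747 CPM, with 3 of 8 not overlapping, and stroma markers to 3369 to 3640 CPM and 3567 to 4156 CPM, with 0 of 7. Surface epithelium markers did not overlap in the other direction, at 129 to 139 CPM and 121 to 125 CPM, with 2 of 6 (*Krt7* and *Krt19*) not overlapping. Of all genes, 15.8% did not overlap in these libraries. No marker of these 4 lists was at 0 in all libraries, and their part in the results was not tested.

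*Igfbp3* (chromosome 11 from 7206086 to 7213923, − strand), the main carrier of IGFs in blood, had 11.8, 10.7, 11.1 and 12.5 CPM in WT 1118, 1119, 1120 and 1121. It had 26.4, 9.17, 9.52 and 11.2 CPM in GOAT KO 1139, 1140, 1141 and 1146. The high value of GOAT KO 1139 alone set the direction, with a log2 fold change of 0.28 (SE 0.30, unadjusted p = 0.365, edgeR quasi-likelihood) over 8 libraries and -0.21 without that library. Over the 6 libraries it was -0.23 (SE 0.12, unadjusted p = 0.0903). GOAT KO 1139 was also the library with 365 CPM of fat cell markers, with all 6 markers above the range of the other 6 libraries, and their part in the value of *Igfbp3* was not tested. *Igfbp4* (chromosome 11 from 99041244 to 99054392, + strand) had 132 to 162 CPM in the 6 libraries, and WT 1120 had 233 CPM and GOAT KO 1139 had 219.9 CPM. *Igfbp5* (chromosome 1 from 72857932 to 72874884, − strand) had 567 to 707 CPM in the 6 libraries, and WT 1120 had 797 CPM and GOAT KO 1139 had 718 CPM. Both genes were thus highest in the 2 libraries that stand apart, 1 of each label, and their log2 fold changes were -0.054 (SE 0.17) and -0.025 (SE 0.11).

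**Figure D4:**
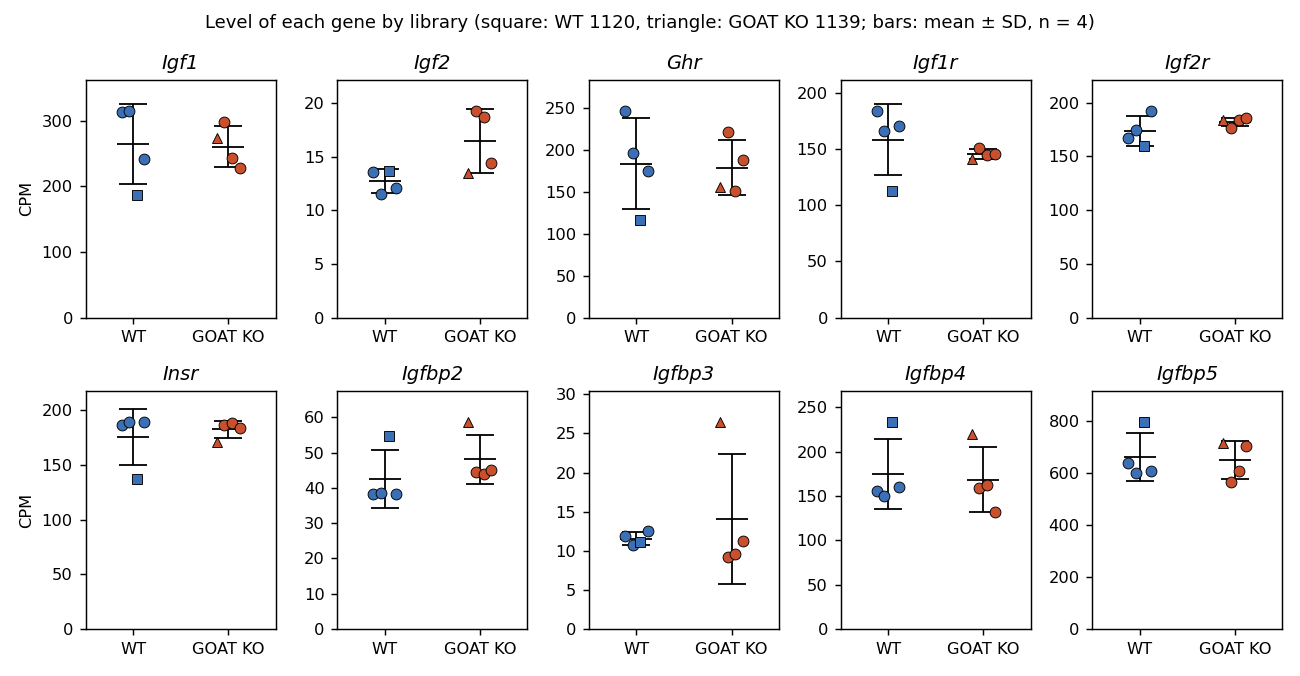
CPM of each of the 10 genes in every library (axes from 0), with WT 1120 as a square, GOAT KO 1139 as a triangle and bars of the mean ± SD (n = 4). *Igf1r* and *Igfbp2* separate by group except for WT 1120, and the high *Igfbp3* value of 26.4 CPM belongs to GOAT KO 1139.

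In WT 1120, *Igf1* and all 4 receptor genes lay below the range of the 6 libraries, 5 of 10 members against 22% of all genes. *Igfbp2*, *Igfbp4* and *Igfbp5* lay above it, 3 of 10 against 23.7%, while *Igf2* and *Igfbp3* lay within it. In GOAT KO 1139, *Igf1r* and *Insr* lay below, 2 of 10 against 18.4% of all genes, and all 4 binding protein genes above, 4 of 10 against 19.6%. These counts were not tested. *Igfbp2*, *Igfbp4* and *Igfbp5* were above in both libraries and *Igf1r* and *Insr* below in both. The share of all genes on the same side in both libraries was not worked out. *Igfbp5* in GOAT KO 1139 was only just above, at 718 CPM against at most 707 CPM in the 6 libraries. Theca and steroidogenic cell markers in WT 1120 summed to 3217 CPM, and in GOAT KO 1139 to 3326 CPM, against 1998 to 2890 CPM in the 6 libraries, and granulosa cell markers to 6934 and 6982 CPM, against 5108 to 6747 CPM. Surface epithelium markers in WT 1120 summed to 107 CPM, and in GOAT KO 1139 to 156 CPM, against 121 to 139 CPM. Stroma markers summed to 3137 CPM in WT 1120, with 4 of 7 below the range of the 6 libraries, and to 4152 CPM in GOAT KO 1139, against 3369 to 4156 CPM. Blood markers summed to 146 and 160.4 CPM in these 2 libraries, against 172 to 591 CPM in the 6. The part of these markers in the members' levels was not tested. The log2 ratio of ligand to binding protein transcripts (per kb) was lowest in WT 1120 at -3.36, with the other libraries between -2.81 and -2.22. Between the groups it did not differ beyond the spread (-2.62 ± 0.52 in WT and -2.60 ± 0.27 in GOAT KO, SD, n = 4 each; two-sided exact permutation test, p = 0.914).

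**Figure D5:**
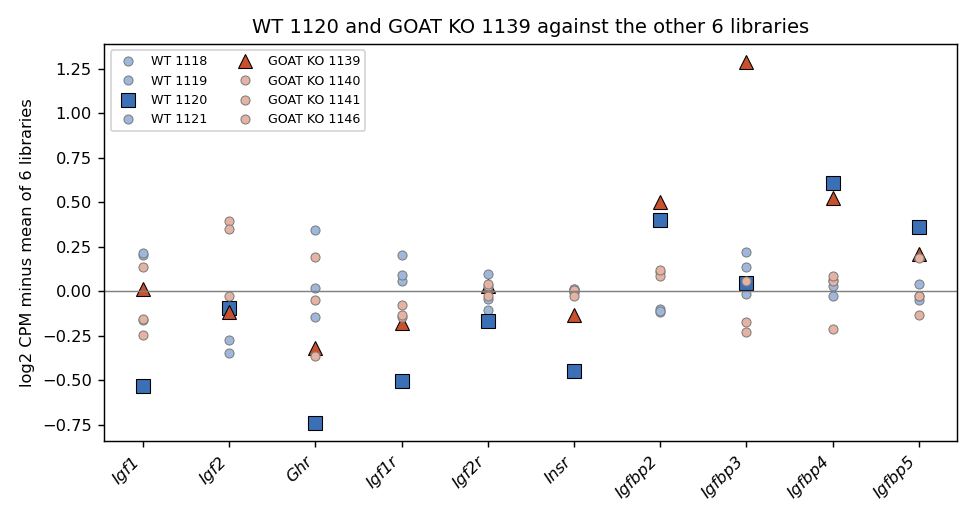
Log2 CPM of each member in each library, less its mean over the 6 libraries, with WT 1120 (square) and GOAT KO 1139 (triangle) enlarged. In WT 1120, *Igf1* and the receptor genes lie under 0 and *Igfbp2*, *Igfbp4* and *Igfbp5* over 0, and GOAT KO 1139 shares the high binding protein levels.

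Of 61 other genes of the pathway, 46 were tested, and their median log2 fold change was -0.00074. Over 8 libraries 1 was higher and 2 were lower in libraries labelled GOAT KO at an unadjusted p under 0.05, against 4.62% of all genes. The 6 genes of growth hormone and its release, among them *Gh* and the ghrelin receptor gene *Ghsr*, were under the filter on low counts. *Ghsr* was at 0 CPM in every library. None of the 11 genes of growth hormone receptor signalling passed over 8 libraries. *Socs2*, the feedback inhibitor that growth hormone induces through STAT5, had 268, 294, 373 and 267 CPM in WT 1118, 1119, 1120 and 1121, and 347, 329.8, 336 and 298 CPM in GOAT KO 1139, 1140, 1141 and 1146. The groups overlapped, with a log2 fold change of 0.12 (SE 0.10, unadjusted p = 0.256, edgeR quasi-likelihood), and 0.22 (SE 0.068, unadjusted p = 0.00864, adjusted p = 0.422) over the 6 libraries. WT 1120 was the highest of all, and without it and GOAT KO 1139 the groups did not overlap, as in 15.8% of all genes, while 9.46% of all genes had an unadjusted p under 0.05 there. Of the 46 other genes tested, 5 did not overlap in the 6 libraries, namely *Socs2*, *Leprotl1*, *Ptpn11*, *Akt2* and *Foxo3*.

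*Leprotl1*, whose product lowers the amount of growth hormone receptor at the cell surface, fell in libraries labelled GOAT KO. It had 43.1, 51.0, 54.6 and 52.2 CPM in WT 1118, 1119, 1120 and 1121, and 22.3, 24.0, 24.2 and 25.7 CPM in GOAT KO 1139, 1140, 1141 and 1146. The groups did not overlap, and the difference of -1.06 on the log2 scale (SE 0.085) had an adjusted p of 0.000487 in edgeR. It was the 1 gene of the 10 members and 46 other genes with an adjusted p under 0.05. *Leprotl1* lies 10.4 kb from *Mboat4* on chromosome 8, so that a change at the targeted locus and the absence of acyl ghrelin cannot be told apart for it. Its relative *Leprot* had 65.8 to 74.1 CPM in libraries labelled WT and 69.3 to 79.6 CPM in those labelled GOAT KO, a log2 difference of 0.086 (SE 0.066, unadjusted p = 0.221).

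*Igfals*, the acid-labile subunit that holds IGF complexes in blood, had 5 to 12 counts in WT libraries and 34, 14, 20 and 9 counts in GOAT KO 1139, 1140, 1141 and 1146. The groups overlapped, with a log2 fold change of 1.23 (SE 0.42, unadjusted p = 0.0144, adjusted p = 0.983, edgeR quasi-likelihood), and 0.75 (SE 0.39, unadjusted p = 0.0821) over the 6 libraries. With 1 library left out, the log2 fold change of *Igfals* ran from 0.78 to 1.47. Its highest library, GOAT KO 1139, was the one with 365 CPM of fat cell markers, whose part in this value was not tested. *H19*, the maternally expressed RNA beside *Igf2*, had 113, 71.1, 94.6 and 69.7 CPM in WT 1118, 1119, 1120 and 1121, and 70.4, 78.4, 65.6 and 49.3 CPM in GOAT KO 1139, 1140, 1141 and 1146. The log2 fold change of *H19* was -0.40 (SE 0.17, unadjusted p = 0.0388, adjusted p = 0.983), and -0.39 (SE 0.20, unadjusted p = 0.0701) over the 6 libraries. The unadjusted p of *H19* was also over 0.05 when WT 1118, WT 1120, GOAT KO 1141 or GOAT KO 1146 was left out alone, with log2 fold changes of -0.40 to -0.25. Of the other lists, none of 7 tested genes of receptor substrates and adaptors, 11 of the PI3K and AKT branch and 4 of IGFBP proteases and their inhibitors passed in either set of libraries, against 4.62% and 9.46% of all genes.

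The tested genes with the most similar profile over the 8 libraries were found by the root mean square difference of centred log2 CPM. For *Ghr* they were *RP24-511F2.4* (0.051) and *Fhl1* (0.075), for *Igf1* *Camta1* (0.066) and *Aff3* (0.082), and for *Igf2* *Gm13023* (0.068) and *Gm12700* (0.091). The profiles of *Ghr*, *Igf1* and *Igf2* themselves deviated from their means by 0.32, 0.24 and 0.25 on the same scale.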

How the data were processed

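Reads of ovarian RNA (50-base single reads) were aligned to mm10 (GRCm38) with TopHat 2.0.14, and the authors deposited raw read counts per gene and counts of reads across splice junctions, 1 library per mouse. The tool and strand used for gene counting are not given in the sources used here. Assembled transcripts and the read summary were not used. Counts were analysed with edgeR 4.0.16 (TMM, filterByExpr with at least 10 counts and 15 in all, quasi-likelihood test, Benjamini-Hochberg over 16601 genes) in R 4.3.3, tested beforehand on simulated counts. SE is the log2 fold change over the square root of F. CPM are TMM-normalized, and the per kb values use the union of GENCODE M21 exons. Call rules follow the study: unadjusted p under 0.05 and absolute log2 fold change over 0.5 or 0.3. The study left out 1 library per group without naming them in its text, and the 6-library set leaves out WT 1120 and GOAT KO 1139. With 4 against 4 an exact permutation test cannot give p under 0.0286. Alternatives were RLE size factors, DESeq2 1.42.0, limma-voom (limma 3.58.1), no filter and each library left out. No pair of libraries of a group differed by less than sampling noise (chi-square per gene at least 3.96). Named genes are the members, *Mboat4*, *Leprotl1*, *Leprot*, listed pathway genes with an unadjusted p under 0.05 in either set and the 2 most similar genes each for *Ghr*, *Igf1* and *Igf2*. *Igf2os*, *Airn*, *Gh*, *Ghsr*, *Hsd3b1*, *Krt7*, *Krt19*, *Adgre1*, *Myh6*, *Ptpn11*, *Akt2* and *Foxo3* are named beyond that rule, the last 8 after their values were seen. The members and lists were chosen with earlier results of these data known. Marker lists for endothelium, macrophages, oviduct, blood and striated muscle were summed too.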

Additional observations from a re-analysis of the deposited data

Results flagged for a closer look

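Of 36 groups of 4 libraries, 5 held a value that stood apart from the rest of their group by more than Dixon's test allows; chance gives about 1 in 20. All were in WT 1120 and GOAT KO 1139, which lay outside the range of the other 6 libraries for many of all genes tested. The share of all genes that Dixon's test flags was not worked out, so the 5 cannot be set against it. *Insr* in WT 1120 was 137 CPM, with 187 to 189 CPM in the other WT libraries. *Igfbp2* was 54.7 CPM in WT 1120, with 38.2 to 38.7 CPM in the others, and 58.6 CPM in GOAT KO 1139, with 43.9 to 45.04 CPM in the others. *Igfbp4* was 233 CPM in WT 1120, with 149.8 to 159.8 CPM in the others. *Igfbp3* was 26.4 CPM in GOAT KO 1139, with 9.17 to 11.2 CPM in the others.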

How the results depend on the processing

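Over all genes, an unadjusted p under 0.05 was reached by 767 genes in the 8 libraries, by 1219 with no filter on low counts, by 1574 in the 6 libraries, and by 557 to 1769 with 1 library left out (557 without GOAT KO 1141, 1769 without WT 1120). With a fold change over 0.3 the counts were 473, 918, 793 and 382 to 866, and over 0.5 they were 278, 691 with no filter and 231 to 437. An adjusted p under 0.05 was reached by 4 genes, by 13 in DESeq2, 7 with no filter, 20 in the 6 libraries and 3 to 14 with 1 library left out (14 without GOAT KO 1139). Of the members, 1 passed the unadjusted p in 8 libraries, 3 in the 6, and 0 to 3 with 1 library left out. It was 0 without GOAT KO 1140 or 1141, where *Igf2* missed the threshold, and 3 without WT 1120. With 0.3 asked for, 0 to 2 passed. Of the other pathway genes, 2 to 5 passed with 1 library left out, and in the 6 libraries 1 passed with a fold change over 0.3 and 1 with over 0.5.

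The direction turned for *Igf1* in limma-voom (0.0041), and in the 6 libraries for *Insr* (-0.016), *Igfbp3* (-0.23), *Igfbp5* (0.026) and the ligand to binding protein ratio (-0.15). With 1 library left out, the log2 fold change ran from -0.16 to 0.071 for *Igf1*, -0.21 to 0.14 for *Ghr*, -0.050 to 0.090 for *Insr*, -0.21 to 0.44 for *Igfbp3*, -0.21 to 0.11 for *Igfbp4* and -0.076 to 0.073 for *Igfbp5*. The ratio ran from -0.22 to 0.16, the class 2 share difference from -2.90 to 1.68 percentage points, and the Eb share difference from 1.36 (without WT 1121) to 4.75 (without WT 1120). The cause of these changes was not tested. *Igf2*, *Igf1r*, *Igf2r*, *Igfbp2* and *Leprotl1* kept their direction under all 13 alternatives. No paired analysis was possible because the groups share no replicate numbers. Depth was lowest for *Igf2*, with 207 to 366 reads per library, and *Igfbp3*, with 150 to 442.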

Other observations

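Macrophage markers, the genes of a cell type known to express *Igf1*, summed to 88.3 to 119 CPM in libraries labelled WT and 83.4 to 95.6 CPM in those labelled GOAT KO. Of the 7, *Adgre1* alone did not overlap between the groups, at 6.19 to 7.25 CPM and 4.85 to 5.58 CPM, against 2.92% of all genes. Endothelium markers summed to 291 to 343 and 275 to 325 CPM, oviduct markers to 6.01 to 11.8 and 6.60 to 13.9 CPM, and blood markers to 146 to 591 and 160.4 to 336 CPM. Striated muscle markers summed to 9.22 to 22.3 CPM in libraries labelled WT and 5.09 to 7.88 CPM in those labelled GOAT KO, without overlap. This rested on *Myh6*, a cardiac myosin heavy chain gene and the 1 marker of 6 whose groups did not overlap. Without it the other 5 summed to 2.73 to 3.46 CPM and 2.85 to 3.61 CPM.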
